A study of Mus musculus with 20 samples.

Results

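Semaphorins, plexins, neuropilins, Eph receptors and ephrins are the guidance genes described here in bulk RNA-seq of the mouse cochlea. They were selected by symbol alone (Sema3 to Sema7, Plxn, Nrp1 and Nrp2, and the numbered Epha, Ephb, Efna and Efnb genes), whatever their values, which gave 54 of the 24411 gene symbols in the tables. The 54 genes comprise 20 semaphorins, 9 plexins, 2 neuropilins, 14 Eph receptors, 8 ephrins and 1 antisense transcript of the *Plxna4* locus, *Plxna4os1*.

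Semaphorins are secreted or membrane-bound ligands. Plexins are their receptors, and neuropilins are the co-receptors through which most secreted class 3 semaphorins reach the plexins. Ephrins are membrane-bound ligands of the Eph receptor tyrosine kinases, and signals can pass into both of the touching cells. In the developing cochlea these families are known for steering the peripheral fibers of spiral ganglion neurons (SGNs) toward the inner and outer hair cells. Semaphorin-3F and its co-receptor neuropilin-2, semaphorin-5B with plexins A1 and A3, and EphA4 and EphA7 with their ephrins are the pairs best described there.

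Each library was made from the apical coil of the cochlea, with the sensory epithelium and the SGNs dissected together and tissue from 4 mice of both sexes pooled. *Bai1* tm2b/+ mice (labeled Het) served as controls for *Bai1* tm2b/tm2b mice (labeled Homo) at postnatal day (P) 7 and P22. All mice carried at least 1 tm2b allele on a C57BL/6N background, with the hypomorphic *Cdh23* ahl allele of that strain, and no wild-type library was analyzed here. The tm2b allele lacks exons 3 and 4 of *Adgrb1*, the gene that encodes BAI1, in all cells and leaves a lacZ cassette with a splice acceptor, while the short isoform stays intact. At P22 there were 3 libraries per genotype, and at P7 there were 7. The labels give 2 P7 batches of 3 and 4 replicates without naming them, and the sets below follow the tables: replicates 5 to 7 were deposited as estimated counts and replicates 1 to 4 as values that behave as rounded TPM, a unit that corrects for transcript length and library size.

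The libraries in counts held between 31108551 and 58807173 counts, and the depth of those in rounded TPM is unknown. Levels from counts are given below as CPM (counts divided by the library total and multiplied to a common scale) scaled by the trimmed mean of M-values (TMM) over all 12 libraries in counts. *Adgrb1* stood at 154, 152 and 167 CPM in the P22 tm2b/+ libraries and at 103, 100.2 and 105 CPM in the tm2b/tm2b libraries, and the tables do not separate its isoforms. In P7 replicates 5 to 7 it was at 32.07 to 56.45 CPM in tm2b/+ and 21.57 to 31.2 CPM in tm2b/tm2b libraries (log2 -0.64, edgeR adjusted p = 0.894). In P7 replicates 1 to 4 it did not differ, with 7 to 12 TPM in tm2b/+ and 9 to 12 TPM in tm2b/tm2b libraries (log2 0.01, limma adjusted p = 0.958). At P22 the summed level of 13 neuron markers was lower in every tm2b/tm2b library (11960 to 13590 CPM) than in any tm2b/+ library (15880 to 17990 CPM), with 2 of the 13 markers called lower. The sum of 12 hair cell markers was 593.3 to 696.3 CPM in tm2b/tm2b against 467.8 to 493.8 CPM in tm2b/+ libraries, and that of 10 central glia markers was 1076 to 1688 against 784.9 to 918 CPM. Neuron and hair cell markers, taken as sums, were therefore present in every P22 library, and the neuron list does not single out SGNs. In bulk tissue fewer cells of a type cannot be told apart from less RNA per cell. By immunolabeling of mice older than P22, the paper found no significant genotype difference in afferent fiber counts of the apical coil. It also found SGN cell bodies in adult tm2b/tm2b mice.

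Among the semaphorins, the glycosylphosphatidylinositol-anchored *Sema7a*, a ligand of plexin-C1 and of integrins, and the secreted *Sema3b* had the highest levels per length. In the 8 P7 libraries in rounded TPM, *Sema3b* averaged 107.8 TPM (range 77 to 147) and *Sema7a* 85.3 TPM (61 to 105), and these ranges overlapped. *Sema4c*, a membrane-bound ligand of plexin-B2, averaged 43.8 TPM. Of the receptors, *Plxnb2* averaged 54.4 TPM, *Nrp2* 46.8 TPM and *Plxnd1*, which binds semaphorin-3E directly, 46.4 TPM. The leading Eph receptors were *Ephb4* (50.0 TPM), *Ephb6* (41.6 TPM) and *Ephb3* (39.8 TPM), and the leading ephrins *Efnb2* (54.5 TPM), *Efnb1* (53.0 TPM) and *Efna1* (40.1 TPM). Apart from the 2 leading semaphorins, the members named here lay between 39.8 and 54.5 TPM with ranges that overlapped. At P22, per kilobase of exon, the order differed, with *Sema7a* at 254.1 CPM per kb, *Sema3b* at 55.8 and *Sema6b*, a membrane-bound class 6 ligand, at 29.6. At the other end, *Epha6* was listed at 0 or 1 TPM, and *Plxna4os1* was listed at 0 TPM in all 8 libraries and had at most 20 counts in any library in counts.

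The first comparison asked which guidance genes differed between genotypes at P22, an age after the normal onset of hearing. By edgeR, *Sema3e* and *Sema3d*, a pair of secreted class 3 semaphorins, were called lower in tm2b/tm2b libraries, and none of the 53 members tested was called higher. *Sema3e* stood at 242, 225 and 283 CPM in the tm2b/+ libraries and at 120.2, 136 and 135 CPM in the tm2b/tm2b libraries. The lowest tm2b/+ library was thus well above the highest tm2b/tm2b library. The fold change was 1.91-fold lower (log2 -0.93, SE 0.0865, edgeR quasi-likelihood adjusted p = 0.000574). *Sema3d* stood at 44.5, 36.1 and 47.8 CPM in tm2b/+ and at 26.9, 32.3 and 28.7 CPM in tm2b/tm2b libraries, again without overlap but with a narrower gap. It fell 1.45-fold (log2 -0.54, SE 0.109, edgeR adjusted p = 0.0118), just past the limit of 0.5 on the log2 scale.

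**Figure D1:**
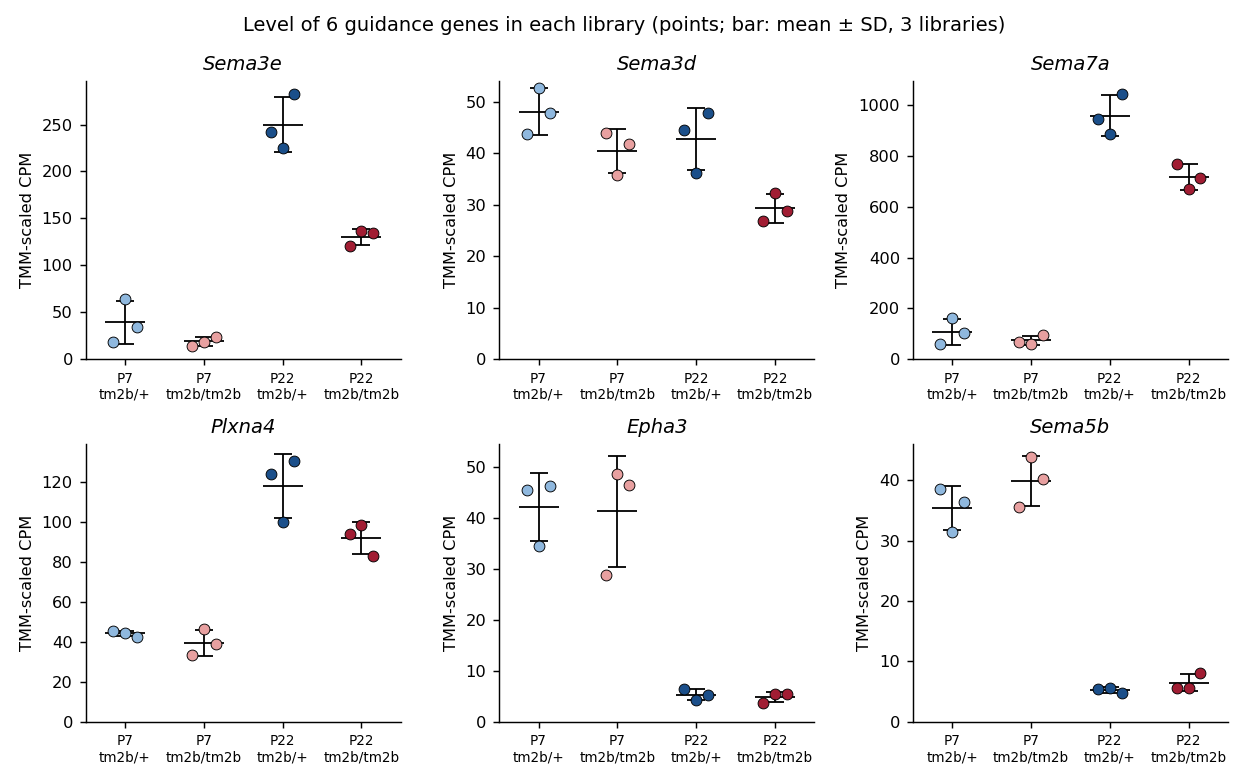
TMM-scaled CPM (y axes, linear, from 0) of *Sema3e*, *Sema3d*, *Sema7a*, *Plxna4*, *Epha3* and *Sema5b* in each library in counts, by age and genotype. Points are libraries, and bars give the mean ± SD of 3 libraries. At P22 the tm2b/tm2b libraries of *Sema3e* (120.2 to 136 CPM) lie below the tm2b/+ libraries (225 to 283 CPM), while *Epha3* and *Sema5b* are far lower at P22 than at P7 in both genotypes.

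*Sema3e* (ENSMUSG00000063531.7) lies on the plus strand of chromosome 5 from 14025276 to 14256689 and *Sema3d* (ENSMUSG00000040254.11) on the same strand of that chromosome from 12383385 to 12588948 (GRCm38). *Sema7a* (ENSMUSG00000038264.8), which had the widest difference between ages, lies on the plus strand of chromosome 9 from 57940112 to 57962865. The 250 bases upstream of the RefSeq start of each of these genes (GRCm38.p6) are shown because *Sema3e* and *Sema3d* were the members called at P22 and *Sema7a* differed most between ages, at chr5:14025026-14025275, chr5:12382916-12383165 and chr9:57939862-57940111, all on the plus strand. Capitals mark the GC box GGGCGG on either strand, a match that overlaps none of the other motifs searched.
Sema3e: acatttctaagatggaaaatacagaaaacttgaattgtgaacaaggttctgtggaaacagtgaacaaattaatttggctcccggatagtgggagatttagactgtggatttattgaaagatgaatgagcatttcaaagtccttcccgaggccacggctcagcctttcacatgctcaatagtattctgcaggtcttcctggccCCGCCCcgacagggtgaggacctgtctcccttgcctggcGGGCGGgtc
Sema3d: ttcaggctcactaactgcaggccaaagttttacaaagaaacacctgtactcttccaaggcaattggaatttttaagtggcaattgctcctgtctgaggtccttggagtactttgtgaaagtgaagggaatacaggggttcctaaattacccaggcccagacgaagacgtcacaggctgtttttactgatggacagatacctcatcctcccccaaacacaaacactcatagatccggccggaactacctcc
Sema7a: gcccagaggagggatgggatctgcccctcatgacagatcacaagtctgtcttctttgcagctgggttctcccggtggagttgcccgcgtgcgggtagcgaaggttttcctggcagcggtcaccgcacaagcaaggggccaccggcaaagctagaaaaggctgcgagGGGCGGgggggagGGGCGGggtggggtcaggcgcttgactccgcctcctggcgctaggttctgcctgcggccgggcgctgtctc

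The *Sema3e* and *Sema7a* stretches each held 2 GC boxes and that of *Sema3d* none, and the 3 stretches had 48.0%, 66.4% and 46.8% G or C in that order. None of the 3 held the E-box CACGTG or the TATA box TATAAA. Of the 54 members, 47 had 1 or more such windows, 61 in all. The GC box was in 75.4% of these windows against 32.7% of the 32851 windows of all genes, the E-box in 4.92% against 6.02%, and the TATA box in 1.64%, a single window of *Efnb2*, against 12.4%. The median G or C content was 64.4% for the members' windows and 52.4% for all. A match is a description of the letters and not of a bound site.

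Among all 15443 genes tested at P22, 1.41% were called lower, 1.74% were called higher and 3.15% were called either way. The 2 members called make 3.77% of the 53 tested, a share close to that of all genes. The median log2 fold change was 0.01 over the members and 0.01 over all genes. Genotypes did not overlap for 24 of the 53 members, 11 higher and 13 lower in tm2b/tm2b libraries, where 15.0% of all genes lay apart on the higher side and 18.8% on the lower side.

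The class 3 semaphorins lay mostly on the lower side. Of these 7 secreted ligands, 2 were called lower and 6 had a log2 fold change below 0, with a median of -0.42. Of all 15443 genes, 7357 lay below 0. These signs depend on the scaling, since 47 of all 53 members lay above 0 when scaled to the neuron marker sum. *Sema3g*, a class 3 semaphorin of vessels, was at 19.9, 15.9 and 20.2 CPM in tm2b/+ and at 13.5, 13.6 and 14.0 CPM in tm2b/tm2b libraries (log2 -0.44, SE 0.107, edgeR adjusted p = 0.0268), below the fold limit. *Sema3a* was lower in every tm2b/tm2b library (10.4 to 14.7 CPM) than in any tm2b/+ library (16.2 to 18.7 CPM), without passing the test (log2 -0.42, edgeR adjusted p = 0.068). *Sema3f* was the exception, at 50.9, 50.9 and 56.1 CPM in tm2b/+ and at 67.4, 56.7 and 59.9 CPM in tm2b/tm2b libraries (log2 0.23, edgeR adjusted p = 0.0802). The 4 class 6 semaphorins, which are membrane-bound, lay between 0.09 and 0.14, and none was called.

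*Sema7a* was the most abundant member per length at P22, with 944, 888 and 1046 CPM in tm2b/+ and 769, 669.6 and 712 CPM in tm2b/tm2b libraries. No library of one genotype reached the range of the other, and the difference (log2 -0.41, SE 0.0763, edgeR adjusted p = 0.00819) was below the fold limit. *Sema4c* went the other way, with 112, 124 and 120.5 CPM in tm2b/+ and 143, 135 and 144 CPM in tm2b/tm2b libraries (log2 0.25, SE 0.0591, edgeR adjusted p = 0.0218).

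None of the 11 plexins and neuropilins was called at P22 by edgeR. *Plxna1*, a receptor of class 3 semaphorins with the neuropilins, was at 281, 259.5 and 319 CPM in tm2b/+ and at 233, 238 and 223 CPM in tm2b/tm2b libraries, without overlap (log2 -0.30, SE 0.0743, edgeR adjusted p = 0.0272). *Plxna4*, a receptor of class 3 and class 6 semaphorins, had 124, 100.2 and 130.5 CPM in tm2b/+ and 94.0, 98.7 and 83.1 CPM in tm2b/tm2b libraries (log2 -0.36, SE 0.0985, edgeR adjusted p = 0.0402). *Nrp2* was lower in every tm2b/tm2b library (50.6 to 63.9 CPM) than in any tm2b/+ library (68.4 to 71.0 CPM), without passing the test (log2 -0.25, edgeR adjusted p = 0.0734), and *Plxna3* lay at 0.09. *Plxnd1* and *Plxnc1*, the receptors named above for semaphorins 3E and 7A, were not called by edgeR, with log2 fold changes of -0.02 (SE 0.0612) and -0.61 (SE 0.226, edgeR adjusted p = 0.102). *Plxnc1* was called lower by DESeq2.

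**Figure D2:**
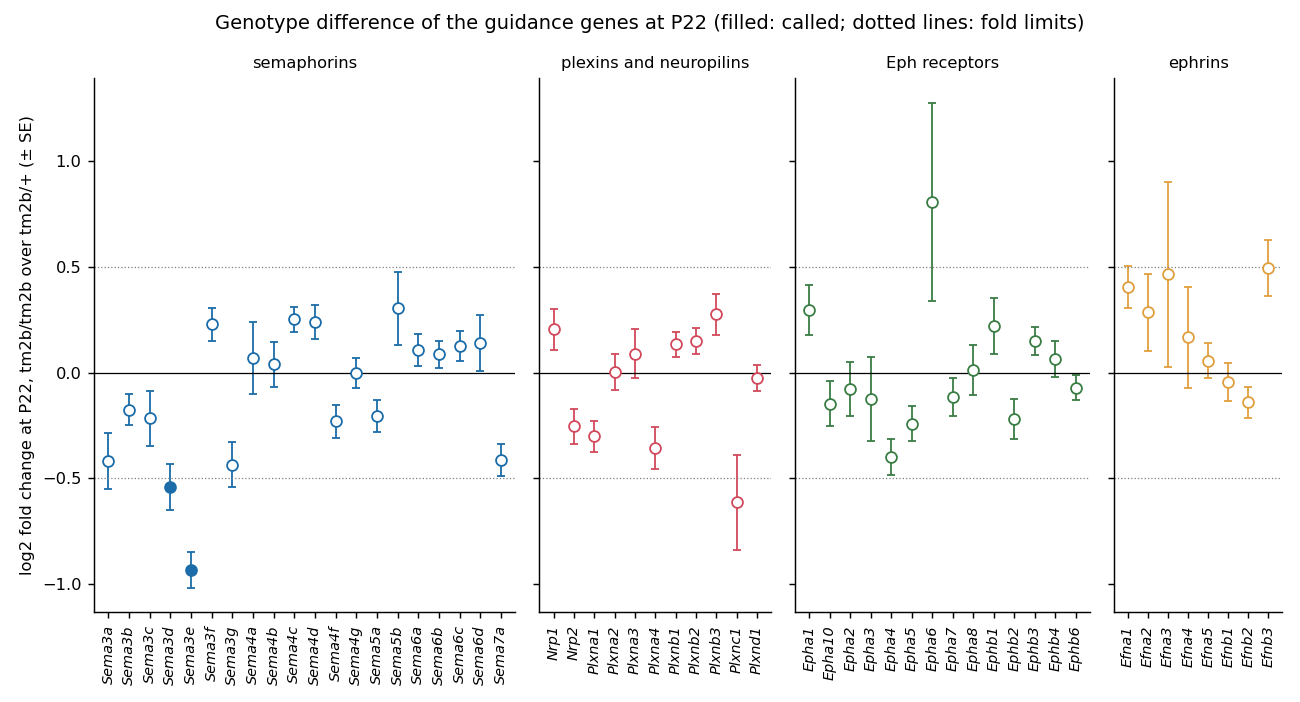
Log2 fold change at P22, tm2b/tm2b over tm2b/+ (y axis, with SE bars), for each of the 53 members tested, by family. Filled points are the 2 members called, *Sema3d* (-0.54) and *Sema3e* (-0.93), and dotted lines mark the fold limits of 0.5 in either direction.

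None of the 14 Eph receptors was called. *Epha4*, the receptor of SGN fibers that binds both ephrin classes, was at 99.4, 87.9 and 109 CPM in tm2b/+ and at 68.8, 77.8 and 77.0 CPM in tm2b/tm2b libraries, without overlap (log2 -0.40, SE 0.0846, edgeR adjusted p = 0.0147). *Epha7*, at 57.2 to 58.6 CPM in tm2b/+ and 46.4 to 60.4 CPM in tm2b/tm2b libraries, overlapped between genotypes (log2 -0.12). *Epha6* had the value farthest above 0 (log2 0.81), with levels of 0.189 to 0.624 CPM and an SE of 0.468.

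None of the 8 ephrins was called either, and the 5 A-class ephrins, which are lipid-anchored, all had values above 0, from 0.06 for *Efna5* to 0.47 for *Efna3*. Of all 15443 genes, 8086 lay above 0. Scaled to the hair cell marker sum, 3 of all 53 members lay above 0. *Efna1* was at 20.5, 23.5 and 18.4 CPM in tm2b/+ and at 25.7, 26.9 and 29.7 CPM in tm2b/tm2b libraries, every one higher (log2 0.41, SE 0.101, edgeR adjusted p = 0.0281). *Efnb2*, at 139 to 167 CPM and 130.4 to 144 CPM, overlapped between genotypes (log2 -0.14). With an adjusted p under 0.05 as the only criterion, 3 members were higher (*Sema4c*, *Efna1* and *Efnb3*) and 7 were lower, against 5.04% and 7.28% of all genes.

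Some members had the same order over the P22 tm2b/tm2b libraries as the central glia markers. Of these markers, 6 of 10 were called higher at P22 and none of the 10 was at 0 in these libraries. The marker sum was 1338, 1688 and 1076 CPM in tm2b/tm2b replicates 1, 2 and 3. In the same order, *Efnb3*, an ephrin known from myelin, had 50.6, 61.2 and 38.9 CPM, *Plxnb3* 41.8, 50.8 and 38.8 CPM, *Ephb1* 24.0, 30.2 and 20.2 CPM, and *Sema4d*, a membrane-bound ligand known from oligodendrocytes, 52.2, 56.9 and 45.6 CPM. All 4 genes were highest in replicate 2 and lowest in replicate 3, as the marker sum was. Members that were lower in tm2b/tm2b libraries, against the direction of the markers, also had this order. *Plxna1* was at 233, 238 and 223 CPM and *Plxna4* at 94.0, 98.7 and 83.1 CPM. The share of all genes with this order was not counted. In tm2b/+ libraries the order did not hold, since the sum was 784.9, 918 and 821.7 CPM while *Efnb3* was highest in replicate 1 (37.7 CPM) and *Plxnb3* lowest in replicate 2 (34.1 CPM). Without replicate 3, *Efnb3* was called higher, the only member so called when any P22 library was left out. The 4 genes were chosen after their values were seen, and the part of glial RNA in them was not tested.

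*Sema3e* stayed called lower with each P22 library left out in turn (log2 -1.01 to -0.83). *Sema3d* lost its call without tm2b/+ replicate 3 (log2 -0.45, edgeR adjusted p = 0.0444) and without tm2b/tm2b replicate 1 (log2 -0.48, edgeR adjusted p = 0.0349). Because the neuron marker sum in tm2b/tm2b was 0.753 of that in tm2b/+ libraries, the libraries were also scaled to that sum, which moved the median over all genes from 0.01 to 0.41. On that scale 18 members (4481 of all genes) were called higher and *Sema3e* alone (33 of all genes) was called lower (log2 -0.52, edgeR adjusted p = 0.00132), while *Sema3d* and *Sema7a* lay at -0.13 and -0.01. Scaled to the hair cell marker sum, which moved that median to -0.44, no member was called higher and 22 of 53 were called lower, *Sema3e* and *Sema3d* among them, as were 5357 of the 15443 genes.

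The same question at P7 was addressed separately in each set. In replicates 5 to 7 no member was called, nor was any of the 16026 genes tested (0.0%) by edgeR, and 5 of the 53 members had an unadjusted p under 0.05 where 4.76% of all genes did. By DESeq2, 44 of all genes were called higher and 4 lower, and no member was called. A log2 fold change above 0 was seen for 18 of the 53 members and for 50.9% of all genes, and for 47 members with the libraries scaled to the neuron markers and 9 with the hair cell markers. *Sema3e* again had the value farthest below 0, at 18.5, 63.8 and 34.6 CPM in tm2b/+ and 14.0, 18.5 and 23.6 CPM in tm2b/tm2b libraries (log2 -1.04, SE 0.413, edgeR unadjusted p = 0.0398, adjusted p = 0.894). The genotypes overlapped, and tm2b/+ replicate 6 was far above the rest. That library also had the highest neuron marker sum, 3244 CPM against 1386 to 2109 CPM in the other 5, and the highest *Sema7a*, at 161 CPM against 60.4 to 101 CPM. Without it the log2 fold change of *Sema3e* was -0.48, and the part of neuron content in these values was not tested.

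The smallest unadjusted p values in replicates 5 to 7 were those of *Efnb1*, *Sema4a* and *Sema4b*. *Efnb1*, a membrane-bound B-class ephrin, was at 86.2, 96.3 and 100.5 CPM in tm2b/+ and at 75.8, 73.7 and 73.4 CPM in tm2b/tm2b libraries, without overlap (log2 -0.32, SE 0.0739, edgeR unadjusted p = 0.00328, adjusted p = 0.894). *Sema4a*, a membrane-bound semaphorin, was at 7.68, 6.86 and 7.23 CPM in tm2b/+ and at 9.46, 9.68 and 9.46 CPM in tm2b/tm2b libraries, every one higher (log2 0.42, SE 0.104, edgeR unadjusted p = 0.0047, adjusted p = 0.894). *Sema4b* overlapped between genotypes, with 26.7 to 31.9 CPM and 31.5 to 34.7 CPM (log2 0.24, edgeR adjusted p = 0.894). All 7 class 3 semaphorins had a log2 fold change below 0 there, with a median of -0.22, and none passed the test. In replicates 1 to 4, 6 of these 7 lay above 0, with a median of 0.14.

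In replicates 1 to 4, where 46 members had a mean of at least 5 TPM, *Plxna4* alone was called higher by limma and no member was called lower. It had 4, 4, 3 and 3 TPM in tm2b/+ and 6, 8, 6 and 7 TPM in tm2b/tm2b libraries. Every tm2b/tm2b library was above every tm2b/+ library, at levels where 1 TPM is the step between values. Its mean was below the filter in tm2b/+ libraries (3.5 TPM) and above it in tm2b/tm2b libraries (6.75 TPM), so that it passed the filter only through the group where it was high. The log2 fold change on the log2(TPM + 1) scale, which understates changes of low genes, was 0.69 (SE 0.116, limma adjusted p = 0.0454). Of all 11740 genes, 0.596% were called higher and 0.17% lower. The call was lost in most of the alternatives, such as removal of the trend on transcript length and GC content (log2 0.40, limma adjusted p = 0.118), and in replicates 5 to 7 the same gene lay at -0.14 (SE 0.109).

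The values of replicates 1 to 4 were shifted upward as a group. A log2 fold change above 0 was seen for 41 of the 46 members, with a median of 0.18, where 51.4% of all genes lay above 0 and their median was 0.01. Among the 46 were *Plxna4*, *Sema4f* and *Plxna3* (means of 4.75 TPM in tm2b/+ and 6.75 TPM in tm2b/tm2b), which passed the filter only through the tm2b/tm2b libraries. With no filter on low values, 47 of 53 members lay above 0, with a median of 0.18. Among 3600 genes with transcripts of similar length to the members', 69.8% lay above 0, with a median of 0.09. The longest transcripts of these members were long, with a median of 4707.5 nucleotides against 3432 for all genes. With the trend on length and GC content removed, 29 of 46 members lay above 0 and their median was 0.06. Marker sums also differed in this set. The neuron marker sum was 2707 to 3670 TPM in tm2b/tm2b and 2094 to 3371 TPM in tm2b/+ libraries. The ratio of means was 1.23 for neuron, supporting cell and mesenchyme markers and 0.859 for hair cell markers. In replicates 5 to 7 the neuron marker ratio was 0.772. The part of cell content in the shift was not tested. *Plxna1* (22 to 28 TPM in tm2b/+ and 28 to 45 TPM in tm2b/tm2b, log2 0.49, limma adjusted p = 0.0455) and *Epha4* (13 to 17 and 18 to 24 TPM, log2 0.40, limma adjusted p = 0.0454) were below the fold limit. With *Plxna4* they made 3 members that were higher with an adjusted p alone, against 4.26% of all genes. In tm2b/tm2b replicate 1 many members were close to the tm2b/+ level, with *Plxna1* at 28 and *Sema3e* at 15 TPM, where the other tm2b/tm2b libraries had 39 to 45 and 24 to 27 TPM. Without that library, *Plxna1*, *Plxna4*, *Sema3e* and *Sema4f* were called higher, and over all genes the number called higher went from 70 to 267. *Sema4f* averaged 5.0 TPM over all libraries of this set (3 to 8 TPM), at the filter itself. Like *Plxna4*, it passed the filter only through the tm2b/tm2b libraries, where it was higher.

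**Figure D3:**
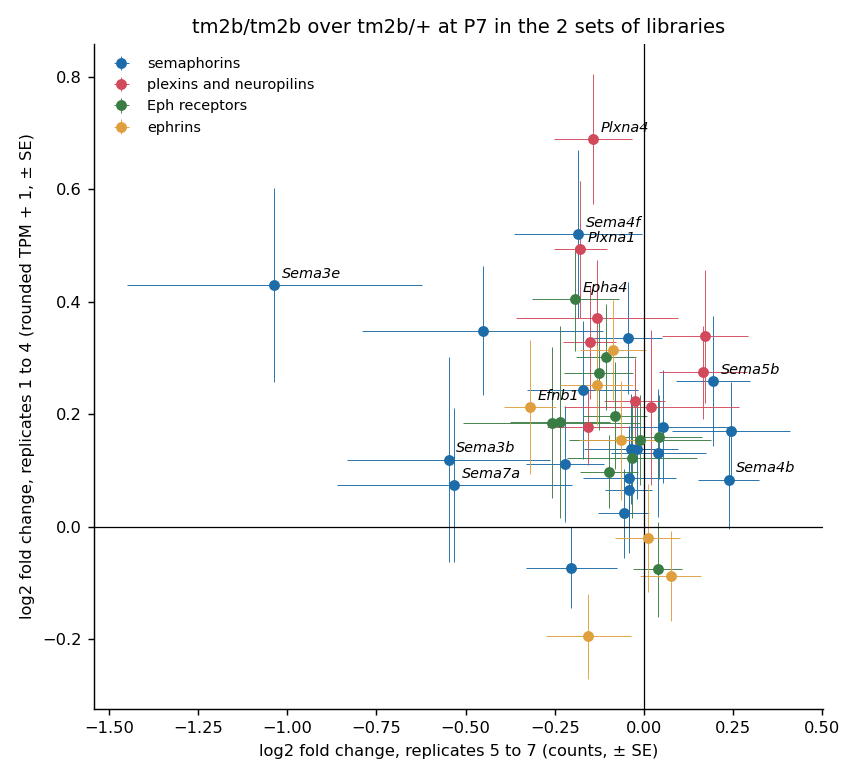
Log2 fold change of tm2b/tm2b over tm2b/+ at P7 for the 46 members tested in both sets, in replicates 5 to 7 (x axis, counts) and in replicates 1 to 4 (y axis, rounded TPM with a pseudocount of 1), with SE bars. Most points lie above 0 on the y axis and left of 0 on the x axis, and *Sema3e* (-1.04 and 0.43) and *Plxna4* (-0.14 and 0.69) lie farthest out.

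The 2 sets did not point the same way. Of the 46 members tested in both, 9 were above 0 in both, 2 were below 0 in both and 35 had opposite signs. *Sema3e* had 16, 20, 13 and 12 TPM in tm2b/+ and 15, 27, 24 and 25 TPM in tm2b/tm2b libraries of replicates 1 to 4 (log2 0.43, SE 0.173, limma adjusted p = 0.113), the opposite sign from replicates 5 to 7. The difference between the sets was not tested, since their units differ.

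Levels were then set side by side between ages, with the P22 libraries and P7 replicates 5 to 7, which are in the same unit. Age, table and sequencing run cannot be told apart in this comparison. Most Eph receptors and ephrins with a difference were lower at P22, while the semaphorins were split. In tm2b/+ mice 10 members were called higher and 29 lower at P22, against 24.8% and 27.0% of the 16314 genes tested. In tm2b/tm2b mice 9 were called higher and 26 lower, against 24.2% and 25.1% of all genes. Called in the same direction in both genotypes were 8 members that were higher and 24 that were lower, where 21.6% and 22.8% of all genes were. No member was called in opposite directions.

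*Sema7a* had the widest difference of all members. It stood at 60.8, 161 and 101 CPM in P7 tm2b/+ and 65.8, 60.4 and 93.0 CPM in P7 tm2b/tm2b libraries, against 669.6 to 1046 CPM in the 6 P22 libraries. No P22 library came near the P7 range, and the difference was 8.92-fold in tm2b/+ (log2 3.16, SE 0.287, edgeR adjusted p = 6.4e-07) and 9.81-fold in tm2b/tm2b mice (log2 3.29). *Plxnc1*, its plexin receptor, went the other way, with 23.5 ± 2.24 CPM at P7 and 8.21 ± 2.44 CPM at P22 in tm2b/+ mice (SD, n = 3) and 23.2 ± 1.38 and 5.33 ± 1.33 CPM in tm2b/tm2b mice (log2 -1.52 and -2.12). *Sema3e* rose 6.39-fold in tm2b/+ (log2 2.67, SE 0.337, edgeR adjusted p = 1.24e-05) and 6.95-fold in tm2b/tm2b mice (log2 2.80), from 14.0 to 63.8 CPM at P7 to 120.2 to 283 CPM at P22. Its receptor gene *Plxnd1*, at 112 to 208 CPM at P7 and 139 to 154 CPM at P22, was not called in either genotype.

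The other members higher at P22 in both genotypes were the semaphorins *Sema6b*, *Sema4f*, *Sema3b* and *Sema6c* and the receptors *Plxna4* and *Plxna1*. *Sema6b*, a ligand of plexin-A4, went from 38.1 to 44.4 CPM at P7 to 111 to 127 CPM at P22 (log2 1.39 and 1.54 in tm2b/+ and tm2b/tm2b mice). *Plxna4* went from 33.3 to 46.3 CPM to 83.1 to 130.5 CPM (log2 1.42 and 1.22). Neither range overlapped between ages, so ligand and receptor were both higher in every P22 library. *Sema4f* had log2 differences of 1.45 and 1.42, *Sema3b* 0.99 and 1.38, *Sema6c* 0.76 and 0.86 and *Plxna1* 0.67 and 0.57.

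The 24 members lower at P22 in both genotypes comprised 8 semaphorins, 6 plexins and neuropilins, 6 Eph receptors and 4 ephrins. *Epha3*, a receptor of A-class ephrins, had the widest drop, from 28.9 to 48.6 CPM at P7 to 3.77 to 6.44 CPM at P22 (log2 -2.99, SE 0.227, edgeR adjusted p = 1.3e-07 in tm2b/+ and log2 -3.09 in tm2b/tm2b mice). *Sema5b* went from 31.4 to 43.9 CPM to 4.72 to 8.04 CPM (log2 -2.75 and -2.63), and *Plxna3* from 41.8 to 59.2 CPM to 12.5 to 16.2 CPM (log2 -1.77 and -1.84). Both were lower in every P22 library than in any P7 library. Plexin-A1, the other receptor named with *Sema5b* in SGN refinement, was among the genes higher at P22.

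Some A-class ephrins and their receptor *Epha1* were also lower at P22 in both genotypes. *Efna3* had log2 differences of -2.40 and -2.20 at levels of 0.205 to 3.58 CPM, *Efna4* -2.25 and -2.08, and *Efna2* -1.91 and -1.54. *Epha1* had -1.98 and -1.64. In *Efna3* and *Efna4*, 14.1% and 10.5% of the exon bases are shared with a gene of the other strand, and in *Plxna1* 10.7%. Use of strand in the counting is not given in the sources used here. By contrast *Efna5* and *Efnb2*, with a described part in the targeting of SGN fibers, were not called in either genotype (log2 0.16 and 0.32 for *Efna5*, 0.16 and 0.16 for *Efnb2*).

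**Figure D4:**
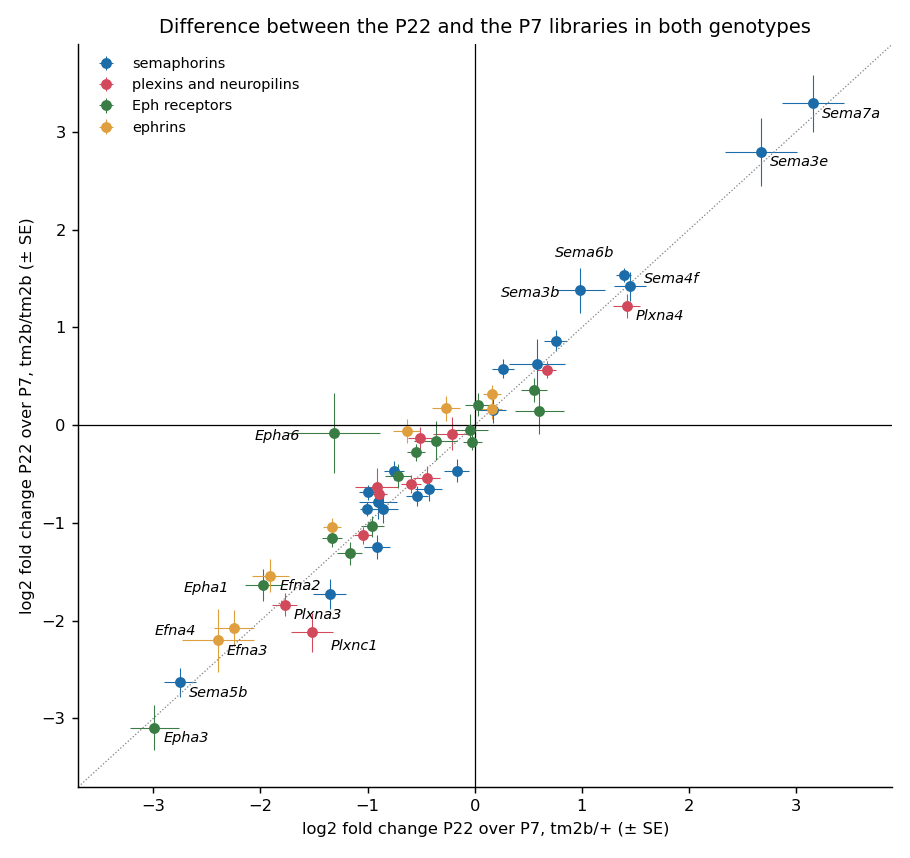
Log2 fold change of P22 over P7 in tm2b/+ (x axis) and in tm2b/tm2b mice (y axis) for the 53 members other than *Plxna4os1*, with SE bars, colored by family, and with the line of equal values dotted. The points lie along that line from *Epha3* (-2.99 and -3.09) to *Sema7a* (3.16 and 3.29).

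Of the 11 genes with a described part in cochlear wiring, *Sema3a*, *Sema5b*, *Nrp2*, *Plxna3*, *Epha7* and *Efna3* were called lower at P22 in both genotypes, *Sema3f* in tm2b/+ mice alone (log2 -0.76 and -0.47), *Plxna1* higher in both and *Epha4* higher in tm2b/+ mice alone (log2 0.55 and 0.36). *Sema3a*, a secreted repellent, went from 33.6 to 51.1 CPM at P7 to 10.4 to 18.7 CPM at P22 (log2 -1.35 and -1.72). *Nrp2* went from 124.5 to 152 CPM to 50.6 to 71.0 CPM (log2 -1.04 and -1.13), and *Epha7* from 113 to 149 CPM to 46.4 to 60.4 CPM (log2 -1.17 and -1.31). None of these ranges overlapped between ages.

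Cell type markers moved far between these ages. From P7 to P22 the neuron marker sum was 7.34 times as high in tm2b/+ and 7.16 times as high in tm2b/tm2b mice. In each genotype 12 of the 13 markers were called higher and the remaining marker, *Syt1*, was called lower. The supporting cell sum was 0.174 and 0.198 times the P7 sum, and the bone marker sum 0.171 and 0.183 times. With the 12 libraries scaled to the neuron marker sum instead, which moved the median log2 difference of all genes to -3.03 and -2.91, no member was called higher and 50 of 54 were called lower in each genotype, as were 13677 and 13699 of the 16314 genes. On that scale *Sema7a* was at 0.32 and 0.44, *Sema3e* at -0.12 and -0.02, and the other 6 risers at -1.33 or lower, so that of the 8 only *Sema7a* stayed above 0 in both genotypes, without passing the test.

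Whether the genotype difference itself changed with age was tested as an interaction in the 12 libraries in counts. No member was called by edgeR, 8 of 54 had an unadjusted p under 0.05, and 0.0306% of all genes were called either way, where 10.2% had an unadjusted p under 0.05. DESeq2 called no member either. The smallest p values were those of *Efna1* (log2 0.57, SE 0.176, edgeR unadjusted p = 0.00663, adjusted p = 0.305), *Sema4d* (0.31, edgeR adjusted p = 0.342) and *Efnb1* (0.29, edgeR adjusted p = 0.422). *Efna1* stood at 31.9, 31.2 and 34.0 CPM in P7 tm2b/+ libraries and 23.0, 32.4 and 30.4 CPM in P7 tm2b/tm2b libraries, so that the tm2b/tm2b libraries overlapped the controls at P7 and were above them at P22. For *Sema3e* the interaction was 0.12 (SE 0.456, edgeR adjusted p = 0.952) and for *Sema3d* -0.30 (SE 0.167, edgeR adjusted p = 0.557).

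The other guidance ligands and receptors (netrins, Slits, Robos, Unc5 receptors, repulsive guidance molecules and related genes, 25 tested) gave a similar picture at P22. *Slit3*, a secreted ligand of Robo receptors, was called lower (log2 -0.64, SE 0.0731, edgeR adjusted p = 0.00124) and *Draxin*, a secreted antagonist of netrin signals, higher (log2 0.72, SE 0.193, edgeR adjusted p = 0.0359). Of 61 co-receptors and effectors tested, *Rnd1*, whose product binds plexins, was the one called at P22 (log2 0.52, SE 0.135, edgeR adjusted p = 0.0333). Among all genes tested at P22, 1.74% were called higher and 1.41% lower. In P7 replicates 5 to 7 none of either list was called, and in replicates 1 to 4 *L1cam* (log2 0.89), a cell adhesion co-receptor of neuropilin-1, and *Dpysl5* (log2 0.63), a collapsin response mediator, were called higher by limma. Among all genes tested in replicates 1 to 4, 0.596% were called higher. No gene at all was called there with a minimum of 1 TPM or with the length and GC trend removed. Between ages 9 of the 25 guidance genes were higher and 14 lower in tm2b/+ mice and 9 and 15 in tm2b/tm2b mice. Of the 61 co-receptors and effectors, 16 were higher and 25 lower in tm2b/+ mice and 15 and 23 in tm2b/tm2b mice. Over all genes 24.8% were higher and 27.0% lower in tm2b/+ mice and 24.2% and 25.1% in tm2b/tm2b mice.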

How the data were processed

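RNA-seq libraries of the apical cochlear coil were prepared from poly A RNA, and according to the methods each was a pool of 4 mice, whereas the supplement gives pools that could be smaller. The authors mapped reads to mm10 with the nf-core pipeline and quantified them with Salmon. For P22 and for P7 replicates 5 to 7 they deposited estimated counts (expected counts) without normalization. For P7 replicates 1 to 4 they deposited whole numbers, treated here as a score, whose sums match TPM after rounding, and the depth is unknown. Versions, annotation and strand setting are not given in the sources used here.

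Counts were rounded, filtered with filterByExpr, scaled by TMM and tested in edgeR 4.0.16 (R 4.3.3) by quasi-likelihood F-tests, within P22, within P7 and over the 12 joined libraries with a coefficient per group. DESeq2 1.42.0 was an alternative. Rounded TPM were TMM-scaled, log2-transformed with a pseudocount of 1, filtered at a mean of 5 and tested with limma 3.58.1 with a trend. P values were adjusted over all genes by Benjamini-Hochberg. To be called, a gene needed an adjusted p under 0.05, a log2 fold change beyond 0.5 up or down, and a SE below 0.5. Each fit was tested on simulated data. The files do not state that libraries of a group came from separate litters, so p values measure the spread between these pools. Within P22 and within P7 replicates 5 to 7, no library was a duplicate of another. The libraries in rounded TPM were not compared in this way.

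The members, gene lists, tests and named genes were chosen with earlier results of these data known. Named were members called at P22, filled up to 8 by p value, at P7 those called or the 4 of smallest p, the 8 widest age differences in each direction, the 3 smallest interaction p values, the 3 highest levels per family and 11 genes with a described part in cochlear wiring. Others were chosen after their values were seen. Alternatives concerned the filter, scaling, test, fold limit, pseudocount, length and GC trends, replicate number and each library left out. Scaling the 12 libraries to neuron markers was added after seeing the data. Gene positions and overlaps are from GENCODE M21 (GRCm38), which matched 95.7% of the symbols, and promoter windows are from RefSeq.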

Additional observations from a re-analysis of the deposited data

Results flagged for a closer look

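Among 36 named genes, 72 groups of 4 libraries in rounded TPM were checked for a library that stood apart from the other 3, which chance alone gives in about 1 in 20 groups, and 3 were found. *Efna2* had 29 TPM in P7 tm2b/tm2b replicate 2, above 23 to 24 TPM in the other 3 libraries of that group. *Efna5* had 7 TPM in P7 tm2b/+ replicate 4, with 8 TPM in each of the others. *Sema4a* had 2 TPM in the same library, with 4 TPM in each of the others. For *Efna5* the gap is 1 TPM, the smallest step between rounded values.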

How the results depend on the processing

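The count of members called at P22 was 3 higher and 7 lower with an adjusted p under 0.05 alone. With each P22 library left out in turn, 0 to 1 were called higher and 1 to 3 lower. Scaled to the neuron markers, 18 were called higher and 1 lower, and 47 of 53 members lay above 0 where 28 did in the main fit. Among the members named for P22 or for cochlear wiring, those that turned sign were *Epha4* 0.013, *Plxna1* 0.11, *Nrp2* 0.15, *Epha7* 0.29 and *Efnb2* 0.27. Scaled to the hair cell markers, 22 were called lower and 3 of 53 members lay above 0. Among the same named members, *Sema4c* -0.20, *Efna1* -0.052, *Sema3f* -0.21, *Sema5b* -0.16, *Plxna3* -0.37 and *Efna5* -0.40 turned sign. *Efna5* ranged from -0.015 without P22 tm2b/+ replicate 1 to 0.12 without replicate 2. In P7 replicates 1 to 4 the count of members called higher was 2 with a pseudocount of 0.5, 4 without TMM scaling, 3 with an adjusted p alone, and 0 with a minimum of 1 TPM, no filter, or the length and GC trend removed, with a range of 0 to 4 over the libraries left out. *Plxna4* lost its call without tm2b/+ replicates 2, 3 or 4 or tm2b/tm2b replicate 3 and was not tested without tm2b/tm2b replicates 2 or 4, where its mean was under the minimum. Between ages in tm2b/+ mice, 6 were called higher with library totals alone, which moved the median of all genes from -0.06 to -0.35, and *Efna5* was then at -0.14 and *Efnb2* at -0.14, and in tm2b/tm2b mice at -0.11. With a fold limit of 1, 5 were called higher and 16 lower in tm2b/+ and 15 lower in tm2b/tm2b mice. Scaled to the neuron markers, 0 were called higher and 50 lower in each genotype, and the values in tm2b/+ and tm2b/tm2b mice were -0.12 and -0.023 for *Sema3e*, -1.59 and -1.33 for *Sema6b*, -1.47 and -1.44 for *Sema4f*, -1.58 and -1.64 for *Plxna4*, -1.90 and -1.51 for *Sema3b*, -2.20 and -2.04 for *Sema6c*, -2.30 and -2.31 for *Plxna1*, -2.44 and -2.48 for *Epha4*, -2.82 and -2.57 for *Efna5* and -2.84 and -2.69 for *Efnb2*. The causes of these shifts were not tested beyond the scaling itself.

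Replicate numbers did not pair the libraries. Deviations of same-numbered libraries correlated over genes at between -0.0019 and 0.06 at P22, between -0.05 and 0.07 in P7 replicates 5 to 7 and between -0.23 and -0.01 in P7 replicates 1 to 4. With the replicate block, 0 members were called higher and 3 lower at P22, with *Plxnc1* added as it was by DESeq2, none in P7 replicates 5 to 7 and 0 in P7 replicates 1 to 4. No paired analysis was possible between ages because the libraries share no replicate numbers. In P7 replicates 5 to 7 the count of members with an unadjusted p under 0.05 ranged from 3 to 9 over the libraries left out and was 0 on the neuron marker scale. For the interaction it ranged from 2 (without P7 tm2b/+ replicate 7) to 11, and was 0 on that scale. Over all genes the interaction calls went from 5 to 40 higher and 61 lower without P7 tm2b/tm2b replicate 5 and to 31 higher and 88 lower by DESeq2.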

Other observations

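*Sema3b* ran in the same order as the summed Schwann cell and myelin markers within each P7 genotype of replicates 5 to 7 and of replicates 1 to 4, ties aside. In P7 tm2b/+ replicates 5 to 7 the marker sum was 10350, 17460 and 14150 CPM and *Sema3b* was at 95.5, 183 and 150.0 CPM. In tm2b/tm2b replicates 5 to 7 the sum was 12000, 5997 and 12140 CPM and *Sema3b* was at 109, 64.3 and 114 CPM. In tm2b/+ replicates 1 to 4 the sum was 21830, 20460, 19150 and 18100 TPM and *Sema3b* was at 109, 104, 88 and 88 TPM. In tm2b/tm2b replicates 1 to 4 the sum was 12640, 24390, 24940 and 15090 TPM and *Sema3b* was at 77, 147, 147 and 102 TPM. Across genotypes of replicates 1 to 4 the order broke, since tm2b/tm2b replicate 4 had more *Sema3b* than tm2b/+ replicates 3 and 4 at a lower sum. At P22 the order held in tm2b/+ libraries, with 9682, 9263 and 8926 counts of *Sema3b* at sums of 24360, 24150 and 23090 CPM. These counts are not scaled for depth and cannot be set beside the CPM of the other genotype. The order did not hold in P22 tm2b/tm2b libraries, with 257, 228 and 264.5 CPM of *Sema3b* at sums of 26730, 28110 and 24020 CPM. These genes were compared after their values were seen, and the part of Schwann cell content in *Sema3b* was not tested.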
